A study of Mus musculus with 2 samples.

Results

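The stromal cells described here were 393 of the 10076 cells kept from sorted mouse brain (3.9%, exact 95% binomial interval 3.53 to 4.3), out of 13499 barcodes. A cell was kept with at least 500 detected genes and at most 10% mitochondrial transcripts. It was counted as a stromal cell when it had a unique molecular identifier (UMI, one counted RNA molecule) of at least 4 of the 10 genes Mgp, Igfbp6, Slc47a1, Efemp1, Islr, Nov, Rspo3, Dcn, Col1a2 and Lum, and of at most 2 of the 6 choroid plexus genes Folr1, Kl, Clic6, Kcne2, Prlr and Otx2. The cells were thus chosen by detection of these 16 genes, whose levels are given as a description with nothing read from them. Since the choice was made by expression, the contrasts with other cells of the same sample are descriptions too.

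The study profiled brain by droplet single-cell RNA sequencing of transcript 3′ ends (10x Genomics v3) in 2 pooled samples, 1 per group. The sorted brain sample held cells of male mice, 3 and 12 months old, after fluorescence-activated cell sorting, and the sources used here do not give the sort gate. The total brain sample held unsorted cells of male and female mice, 2 and 24 months old by its title, although its age label reads 240 months. Each sample pooled wild type mice and STING-KO mice, which lack STING, the adaptor that relays the sensing of DNA in the cytosol, with 2 mice grouped per genotype and age. Each count table carries 4 barcode suffixes, numbered 1 to 4, and the sources used here do not say which age or genotype a suffix holds. Values by suffix therefore show spread within the pool and compare no ages or genotypes. With 1 pooled sample per group no test could be made, and every interval below covers counting error only.

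The brain is wrapped in meninges, and the choroid plexus and large vessels carry connective tissue inward from them. Fibroblasts of these tissues secrete collagens, proteoglycans and growth factors, and the arachnoid layer also holds a barrier of cells joined by tight, adherens and gap junctions that separates cerebrospinal fluid from the outer meninges. Mgp encodes a vitamin K-dependent inhibitor of calcification, Igfbp6 a binding protein for insulin-like growth factors, and Slc47a1 an exporter of organic cations.

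Suffixes 1, 2, 3 and 4 contributed 83, 46, 117 and 147 stromal cells, which were 2.63%, 1.94%, 5.75% and 5.87% of their kept cells. The share was thus lower in suffixes 1 and 2 than in suffixes 3 and 4, and the exact intervals of the low pair (1.42 to 3.25) and the high pair (4.78 to 6.86) did not overlap. The stromal cells held 1429724 UMIs, with a median of 2951 UMIs and 1459 genes per cell and a median mitochondrial share of 4.47%. Scrublet called 10 of them doublets (2.54%), against 124 of all kept cells (1.23%), and doublets were not removed. The number of stromal genes per cell had a dip at the threshold: 13 cells with 3 genes lay just outside, and 18 with 4 genes just inside, while 141 cells had 8. The 18 cells just inside had a median of 1327.5 UMIs and an Mgp level of 11259 UMIs per 1000000 UMIs of the cells (CPM), and the 13 just outside had a median of 1162 UMIs and 8541 CPM. A further 8 cells with at least 4 stromal genes were left out for 3 or more choroid plexus genes, and their level of the choroid plexus transcript Ttr was 216532 CPM. Of the 393 cells, 7 shared their barcode sequence with a cell of another suffix, and 0 of those 7 partners were stromal cells.

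**Figure D1:**
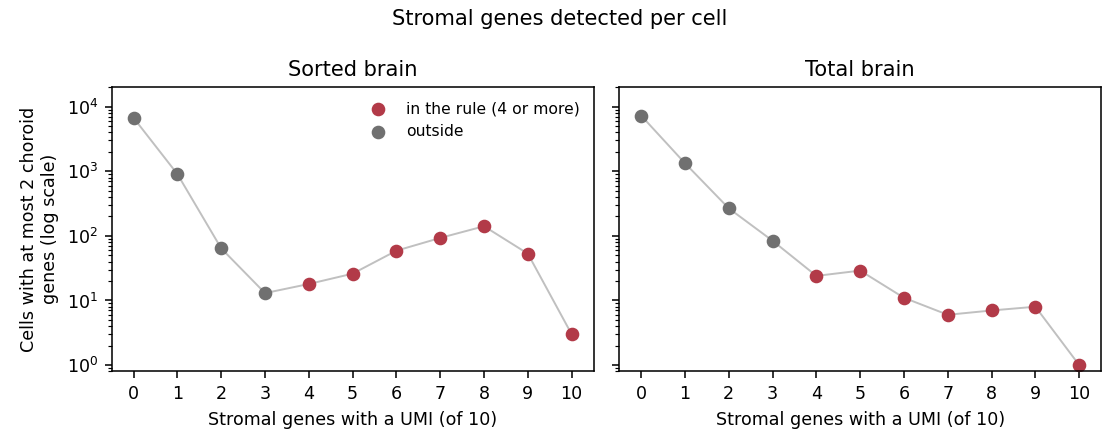
Number of kept cells (vertical axis, log scale) by how many of the 10 stromal genes had a UMI in the cell (horizontal axis), for cells with at most 2 choroid plexus genes, in sorted brain and in total brain. In sorted brain the counts dip to 13 cells at 3 genes and peak again at 141 cells with 8 genes, and in total brain they decline through the threshold, with 84 cells at 3 genes and 24 at 4.

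Among the genes of the rule, Mgp stood at 17059 CPM in the stromal cells (13969, 14941, 19617 and 18297 in suffixes 1 to 4), with a UMI in 99% of cells. Suffixes 3 and 4 were the higher pair. Igfbp6 stood at 1883 CPM with 93.4% of cells and Slc47a1 at 941 CPM with 83% of cells, and both varied little between suffixes (1749 to 2021 and 799 to 1079 CPM). Nov, a matricellular protein of the CCN family, had 2748 CPM, Efemp1, an elastic fibre glycoprotein, 1229 CPM, Rspo3, an enhancer of Wnt signalling, 1067 CPM, and Islr 962 CPM. The fourth marker given for these cells, Dcn (decorin), did not follow the label to the same extent: only 31% of the cells had a UMI of it, 63% of its UMIs lay in 10 cells, and its level was 1169 and 692 CPM in suffixes 1 and 2, and 159 and 402 CPM in suffixes 3 and 4, with 571 CPM in all and 367 CPM without suffix 1. Lum (lumican) was sparser, at 42 CPM and in 3.82% of cells, with 91.7% of its UMIs in 10 cells and a level of 27.2 CPM without suffix 1. The name stromal cells is kept as the label of the rule, and no layer of the meninges is assigned. Mgp, Igfbp6 and Slc47a1 are genes of the rule, so their presence in most of the cells does not bear on the name. In GENCODE M21 (GRCm38) Mgp lies at chr6:136872435-136875823 (minus strand), Igfbp6 at chr15:102144362-102149511 (plus strand) and Slc47a1 at chr11:61343401-61378345 (minus strand).

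Markers of other cell types were unevenly present. The neuron list summed to 6.99 CPM, with Snap25, Syt1, Rbfox3 and Slc17a7 at 0, and the oligodendrocyte precursor list to 27.3 CPM, with Sox10 and Olig2 at 0. The endothelial sum of 1044 CPM (750.2 to 1266 by suffix) came mostly from Itm2a at 920.5 CPM, and the mural sum was 145 CPM, with Notch3, Myh11 and Abcc9 at 0. The astrocyte sum of 2989 CPM (2666 to 3367) rested on Gja1, Gjb6 and S100b, while Aqp4 and Slc1a2 were at 0 and Gfap had 1 UMI. The oligodendrocyte sum of 664 CPM was mostly Cldn11, and Mog had 1 UMI. Microglial transcripts were present at 1963 CPM (893 to 3744 by suffix), in 9 of 10 markers at 20 CPM or more, and 54.6% of them lay in 10 cells. The erythroid sum was 3641 CPM (317 to 10969 by suffix), with 4 of 5 genes at 20 CPM or more, and 583 CPM without 1 cell of suffix 3. Ttr, at 5044 CPM, had a UMI in 100% of the stromal cells. It was also in 100% of 4536 other kept cells that had at least 5 of 10 microglia markers and no choroid plexus gene of the rule, at 8219 CPM, while Mgp was at 38.4 CPM there and Gja1 at 2.76 CPM.

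The stromal cells were compared with 2 sets of cells from the same sample. The first was the rest of the kept cells, 9683 cells with 29790877 UMIs, and the second set lay within it. The second was the choroid plexus epithelium, the cell layer that secretes cerebrospinal fluid, taken as the 1487 cells with at least 4 of the 6 choroid plexus genes and at most 2 of the 10 stromal genes (10154964 UMIs, median 5833 per cell). A gene was called higher or lower at a ratio of at least 2 with 10 CPM added to both levels. Of 15707 genes with at least 10 UMIs over both sets, 1470 were called higher in the stromal cells than in the rest (9.36%) and 1021 lower (6.5%). Against choroid plexus epithelium, 3076 of 12588 genes were called higher (24.4%) and 575 lower (4.57%). Both splits depended on scaling: 59% of the calls against the rest and 84.3% of those against choroid plexus were higher, and with TMM scaling 44% and 44% were, with the median log2 ratio of all genes moved by −0.14 and −0.52. Statements on gene groups below were checked under TMM scaling, and the count under it is given where it differs by more than 1 gene.

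Gap junction genes were among those with the highest ratios to both other sets outside the rule. Gap junctions are channels between neighbouring cells, and Gja1, Gjb6 and Gjb2 each encode one of their connexin subunits. Gja1 had 1149.6, 1221, 1696 and 1398 CPM in the stromal cells of suffixes 1 to 4, against 1.12, 1.21, 1.57 and 1.3 CPM in choroid plexus epithelium and 4.29, 4.69, 6.84 and 7.84 CPM in the rest. Every suffix of the stromal cells lay far above every suffix of both other sets, and the ratio to the rest was 250.3 (counting interval 214 to 295). Gjb6 had 769, 879, 1076 and 941 CPM, against 0.492 CPM in choroid plexus epithelium and 2.79 CPM in the rest, a ratio to the rest of 333 (267 to 421). Gjb2 had 336, 333, 544 and 371 CPM, against 0.0985 CPM in choroid plexus epithelium, which was 1 UMI, and 0.873 CPM in the rest, a ratio to the rest of 466 (315 to 720.1). For all 3 genes suffix 3 was the highest and the groups did not overlap. With each cell thinned to 1000 UMIs, Gja1 was found in 63.2% of 375 stromal cells, 0.0672% of 1487 choroid plexus cells and 0.367% of 3000 other cells drawn at random, and Gjb6 in 56.3%, 0.0672% and 0.3%. Without thinning, at median depths of 2951, 5833 and 2275 UMIs, Gja1 was found in 83.2%, 0.74% and 0.96% of all stromal, choroid plexus and other cells, and Gjb6 in 78.4%, 0.336% and 0.63%. The thinning left out 18 stromal and 451 other cells that were shallower. Of the 393 stromal cells, 377 (95.9%) had a UMI of 1 or more of the 3 connexins, and 200 of the 224 cells with Gjb2 (89.3%) also had Gjb6.

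Gjb2 and Gjb6 are neighbours on mouse chromosome 14, with starts 28909 bases apart on the minus strand, and Gja1 lies on chromosome 10. Igfbp6, on chromosome 15, is a gene of the rule, and nothing is read from its presence in 93.4% of the cells. Its promoter is shown with those of the connexin genes, which were each found in most stromal cells (Gjb2 in 57%, Gjb6 in 78.4% and Gja1 in 83.2%). Each runs from 250 bases before to 50 after the start of the RefSeq transcript (GRCm38.p6), at chr14:57104653-57104952 (minus strand) for Gjb2, chr14:57133562-57133861 (minus strand) for Gjb6, chr10:56377050-56377349 (plus strand) for Gja1 and chr15:102143936-102144235 (plus strand) for Igfbp6. Capitals mark a match, on either strand, to the TATA motif TATAAA, to CACCTG, an E-box to which Snail and Twist family factors can bind, or to TGANTCA, the motif of Fos and Jun dimers, and no 2 matches overlapped.
Gjb2: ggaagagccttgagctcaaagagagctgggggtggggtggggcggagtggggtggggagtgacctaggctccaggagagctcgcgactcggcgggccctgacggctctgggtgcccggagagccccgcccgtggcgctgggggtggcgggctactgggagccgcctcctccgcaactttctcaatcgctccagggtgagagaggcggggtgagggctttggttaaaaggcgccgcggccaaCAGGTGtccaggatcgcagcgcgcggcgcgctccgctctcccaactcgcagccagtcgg
Gjb6: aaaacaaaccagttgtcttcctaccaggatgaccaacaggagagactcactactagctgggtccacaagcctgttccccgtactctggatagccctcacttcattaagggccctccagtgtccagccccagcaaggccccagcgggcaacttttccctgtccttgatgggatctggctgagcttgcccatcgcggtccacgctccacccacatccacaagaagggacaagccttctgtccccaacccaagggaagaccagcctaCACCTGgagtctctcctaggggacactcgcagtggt
Gja1: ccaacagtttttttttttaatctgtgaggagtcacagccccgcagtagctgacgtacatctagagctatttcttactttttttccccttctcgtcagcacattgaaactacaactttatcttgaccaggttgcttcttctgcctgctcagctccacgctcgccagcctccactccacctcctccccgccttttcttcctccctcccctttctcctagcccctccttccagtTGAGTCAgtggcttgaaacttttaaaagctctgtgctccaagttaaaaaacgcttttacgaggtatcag
Igfbp6: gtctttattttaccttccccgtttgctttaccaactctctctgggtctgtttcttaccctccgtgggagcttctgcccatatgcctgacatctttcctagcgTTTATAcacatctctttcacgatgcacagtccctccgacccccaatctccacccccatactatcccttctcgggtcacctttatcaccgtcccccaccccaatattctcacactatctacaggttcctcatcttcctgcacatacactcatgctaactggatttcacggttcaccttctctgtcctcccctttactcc

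The Gjb6 promoter carried CACCTG 14 bases after the start and the Gjb2 promoter carried it on the opposite strand 9 bases before the start (offset −9). The Gja1 promoter carried TGANTCA at offset −19, and the Igfbp6 promoter TATAAA on the opposite strand at offset −148. Of all 32851 RefSeq promoters of this length, 20.2% held CACCTG, 7.81% TGANTCA and 13.6% TATAAA. Of the 20 genes named below as highest against the rest, 12 were matched, with 13 promoters, of which 3 held CACCTG (Htra3, Gjb2 and Gjb6), 3 TGANTCA (F3, Gja1 and Col6a1) and 1 TATAAA (F3). A match describes the letters and not the binding of a factor.

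Other genes of junctions and barriers were uneven. Of 16 such genes measured, 6 were called higher and 3 lower than in the rest (9.36% and 6.5% of all genes; median log2 ratio 0.19, against 0.08 over all genes), and 7 of 15 were higher and 4 lower than in choroid plexus epithelium (24.4% and 4.57% of all genes). Cldn11, a tight junction claudin also made by oligodendrocytes, had 510, 617, 589 and 609 CPM in suffixes 1 to 4, against 1.77 CPM in choroid plexus epithelium and 69.2 CPM in the rest. Cdh1, encoding E-cadherin, had 73.4 CPM (49.9 to 95.1 by suffix) in 18.3% of cells, against 0.0985 CPM in choroid plexus epithelium, and Jup, a component of adherens junctions and desmosomes, had 56 CPM, against 5.91 CPM. Cldn1, Cdh2 and Krt8 were at 0 in the stromal cells, and Dpp4, a peptidase used as a marker of arachnoid barrier cells, had 4.2 CPM in 6 cells.

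**Figure D2:**
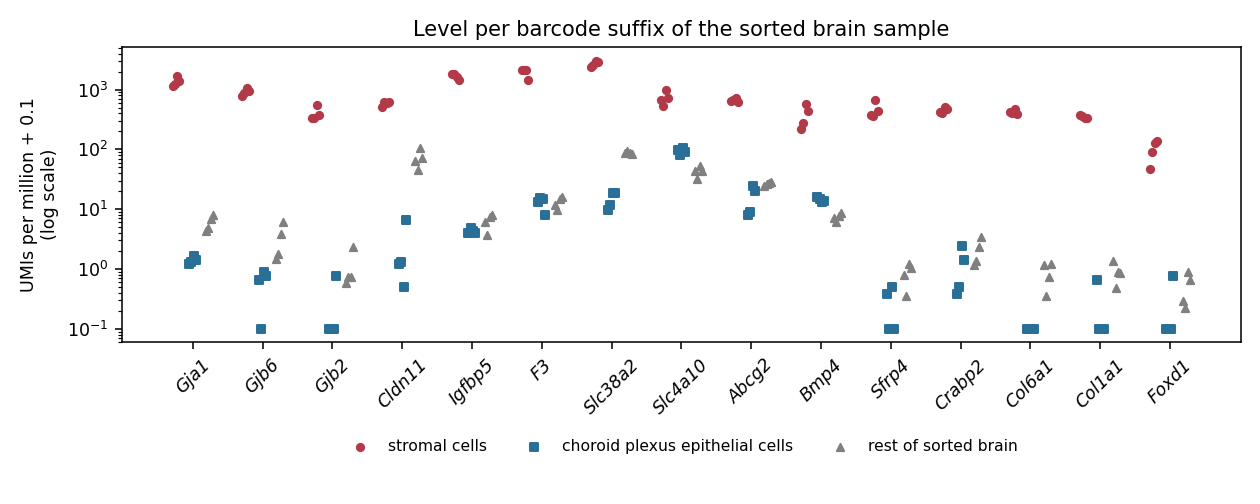
Levels of 15 genes (vertical axis, UMIs per 1000000 UMIs with 0.1 added, log scale) in stromal cells, choroid plexus epithelial cells and the rest of sorted brain, 1 point per barcode suffix. The stromal cells lie above the other sets in every suffix for each gene shown, as for Gja1 with 1149.6 to 1696 CPM against at most 7.84 CPM elsewhere.

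Beyond the connexins, the genes with the highest ratios to the rest included secreted signals and coagulation regulators. In stromal cells, Igfbp5, an insulin-like growth factor-binding protein, had 1831, 1789, 1629 and 1457 CPM in suffixes 1 to 4, against 5.97 CPM in the rest (277-fold, 238 to 324). F3, the tissue factor that starts coagulation, had 2167, 2166, 2106 and 1459.7 CPM, against 12.5 CPM (155-fold, 139 to 174). Thbd, thrombomodulin, which restrains coagulation, had 641 CPM, against 4.57 CPM. The suffixes did not overlap between the sets for any of these genes. Penk, the precursor of enkephalin peptides, had 534 CPM, against 0.806 CPM, with 40.2% of its UMIs in 10 cells. Plpp3, a phosphatase of lipid mediators, had 870.1 CPM, against 9.2 CPM, Gpc3, a cell-surface heparan sulfate proteoglycan, 490.3 CPM, against 1.34 CPM, and Car13, a carbonic anhydrase, 401 CPM, against 1.78 CPM. Tnfrsf11b, the decoy receptor osteoprotegerin, had 349 CPM, against 0.671 CPM, Htra3, a secreted serine protease, 559 CPM, against 6.51 CPM, and Prg4, the lubricant lubricin, 337 CPM, against 0.973 CPM. These were among 805 of the 1470 genes called higher, out of 15707 measured. The 805 also had at least 50 CPM in 1 or both sets and suffix ranges that did not overlap. Genes of the rule and predicted, mitochondrial and ribosomal protein genes were left out of the 805.

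Against choroid plexus epithelium alone, besides Gja1, Gjb6, Igfbp5, F3 and Nbl1, the leading genes were Fxyd5, a regulator of the sodium pump and of adhesion, with 3983 CPM, against 13.7 CPM, and Slc38a2, a sodium-coupled neutral amino acid transporter, with 2765 CPM, against 13.9 CPM. Fxyd5 varied from 3779.8 to 4244 CPM between suffixes of the stromal cells, and from 5.24 to 27.3 CPM between those of choroid plexus epithelium. Ptn (pleiotrophin, a heparin-binding growth factor) had 1449.9 CPM, against 6.4 CPM, Anxa2, a calcium-dependent membrane-binding annexin, 1543 CPM, against 13.2 CPM, and its partner S100a10 1144 CPM, against 7.48 CPM. The lowest ratios belonged to genes of choroid plexus epithelium. Enpp2, the enzyme autotaxin, had 117 CPM in the stromal cells, against 11117 CPM, Ttr 5044 CPM, against 405261 CPM, and Mt3, a metallothionein, 16.8 CPM, against 2079 CPM. Sostdc1, a Wnt and BMP antagonist, and Kcnj13, a potassium channel, each had 8.39 CPM, against 947 and 867 CPM, and Cox8b, Car2 and Pcp4l1 were also low, at 2.8, 11.2 and 2.8 CPM, against 716, 877 and 436 CPM. Against the rest, which also holds immune cells and oligodendrocytes, further genes were low in the stromal cells. The immunoglobulin gene Igkc had 24.8, 4.44, 159 and 92.7 CPM in suffixes 1 to 4, against 704, 426, 8271 and 4012 CPM. It was higher in suffixes 3 and 4 of both sets, and its stromal level of 81.1 CPM was 48.6 CPM without suffix 3. Camp, an antimicrobial peptide of neutrophils, had 6.29 CPM, against 472 CPM.

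Most measured matrix genes were higher in the stromal cells. Without the genes of the rule, 4 of 6 measured fibrillar collagen genes, 8 of 13 other collagens, 11 of 14 elastic fibre genes, 7 of 8 small leucine-rich proteoglycans and 11 of 18 matricellular genes were called higher than in the rest (9.36% of all genes), and 0, 2, 0, 0 and 0 of them lower (6.5%). Their median log2 ratios were 1.75, 2.01, 2, 1.51 and 2.05, against 0.08 over all genes. Col1a1, a chain of type I collagen, had 375, 355, 330.1 and 333 CPM in suffixes 1 to 4, against 0.839 CPM in the rest, and Col6a1 and Col6a2, chains of type VI collagen, had 427 and 439 CPM, against 0.772 and 0.873 CPM. The suffixes of the 3 genes did not overlap between the sets. Col12a1 had 201 CPM, against 0.705 CPM, Col8a2 193 CPM, against 22 CPM, and Col25a1 145 CPM, against 0.537 CPM. Among elastic fibre genes, Fbln1 (a fibulin) had 606 CPM, against 21.4 CPM, Mfap2 155 CPM, against 1.78 CPM, Mfap5 143 CPM, against 0.504 CPM, and Emilin1 129 CPM, against 1.51 CPM. Bgn (biglycan) had 536 CPM, against 4.43 CPM, and Ogn (osteoglycin) 283 CPM, against 7.38 CPM. The matricellular genes with higher levels included Fn1 (fibronectin, 414 CPM, against 12.5 CPM), Smoc2 (225 CPM, against 0.604 CPM), Smoc1 (189.5 CPM, against 0.973 CPM) and Thbs1 (197 CPM, against 9.9 CPM), while Postn and Tnc were at 0.

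Of 14 genes that fold, process and crosslink collagen, 8 were called higher and 2 lower than in the rest, and 10 higher and 1 lower than in choroid plexus epithelium (5 and 1 with TMM scaling). Over all genes these shares were 9.36% and 6.5% against the rest and 24.4% and 4.57% against choroid plexus epithelium. Serpinh1, the collagen chaperone, had 1130.3, 1665, 1069 and 794 CPM in suffixes 1 to 4, against 47.8 CPM in the rest, and Pcolce, an enhancer of procollagen cleavage, 632 CPM, against 112 CPM. Lox and Loxl1, which crosslink collagen and elastin, had 32.9 and 49.7 CPM, against 0.134 and 5.97 CPM. Of 16 basement membrane genes, 7 were called higher than in the rest and 0 lower, led by Lamb2 (a laminin chain, 96.5 CPM, against 7.22 CPM) and Nid1 (nidogen, 76.2 CPM, against 1.14 CPM). Of 18 measured proteases and their inhibitors, 9 were called higher than in the rest and 2 lower (9.36% and 6.5% of all genes). Their list summed to 9296 CPM, against 26443 CPM in the rest. Among those called higher, Timp1 had 252 CPM, against 0.47 CPM, and Serpinf1, an anti-angiogenic serpin, 379.8 CPM, against 43.6 CPM. Htra1 had 74.4, 124, 249 and 276 CPM in suffixes 1 to 4, against 3.56 CPM in the rest. Htra1 was lower in suffixes 1 and 2 than in suffixes 3 and 4. Genes that act on mineral deposition were also measured beside Mgp. Without Mgp, 4 of 7 were called higher than in the rest and 0 lower (2 and 1 with TMM scaling). Alpl, the tissue-nonspecific alkaline phosphatase, had 318 CPM, against 1.51 CPM, Spp1 (osteopontin) 341 CPM, against 15.4 CPM, and Vkorc1 and Ggcx, which recycle vitamin K and carboxylate Gla proteins such as that of Mgp, 179.8 and 37.1 CPM, against 86.7 and 9.84 CPM.

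Among secreted signals, 14 of 24 measured ligands, inhibitors and targets of the BMP and TGF-beta pathways were called higher than in the rest and 1 lower (9.36% and 6.5% of all genes; median log2 ratio 1.22; 12 and 1 with TMM scaling). Of the ligands, Bmp4 had 223, 275, 572 and 447 CPM in suffixes 1 to 4, against 7.15 CPM in the rest and 14.5 CPM in choroid plexus epithelium, so suffixes 1 and 2 were lower than suffixes 3 and 4 and all lay above both other sets. Bmp5 had 138 CPM, against 0.94 CPM in the rest, and Gdf10 157 CPM, against 0.806 CPM. The antagonist Nbl1 had 438, 679, 853 and 887 CPM, against 4.33 CPM in the rest. Id1, Id2 and Id3, which BMP signals induce, had 889, 955 and 1654 CPM, against 85.5, 301 and 153 CPM, and Fst (follistatin) was at 0. Of the 11 receptors, 2 were called higher and 2 lower. On the Wnt side, 10 of 20 measured genes were called higher and 1 lower (median log2 ratio 1.14). Sfrp4, a secreted Wnt antagonist, had 383, 364, 674 and 437 CPM, against 0.705 CPM (684-fold, 444 to 1112), with 35.8% of its UMIs in 10 cells. Dkk3 had 104 CPM, against 1.31 CPM, the receptor gene Fzd1 68.5 CPM, against 0.873 CPM, and the ligand Wnt16 30.8 CPM, against 0.0671 CPM.

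Of 13 genes of the insulin-like growth factor axis, 5 were called higher than in the rest and 0 lower (9.36% and 6.5% of all genes; median log2 ratio 0.38). Besides Igfbp5, Igfbp4 had 289 CPM, against 30.3 CPM, and Igf1 25.9 CPM, against 4.36 CPM, while Igfbp2 had 99.3 CPM, against 146 CPM in the rest and 336 CPM in choroid plexus epithelium. Of 15 retinoid genes, 7 were called higher and 1 lower (median log2 ratio 0.79). Crabp2, which carries retinoic acid to the nucleus, had 427, 413, 506 and 471 CPM in suffixes 1 to 4, against 1.78 CPM in the rest, and the sets did not overlap. Rbp4, the secreted retinol carrier, was patchy: it had 33.1, 493, 42.7 and 340 CPM in suffixes 1 to 4 and a UMI in 35 cells, and without the 10 cells that held 80.3% of its UMIs its level was 40.3 CPM. Aldh1a1 had 55.3 CPM, against 1.04 CPM in the rest, and Aldh1a2, the retinaldehyde dehydrogenase of developing meninges, 3.5 CPM.

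Transporters were divided. Without Slc47a1, 10 of 26 measured genes were called higher than in the rest and 6 lower (9.36% and 6.5% of all genes; 10 and 7 with TMM scaling). Slc4a10, a sodium-dependent bicarbonate transporter also made by choroid plexus epithelium, had 673, 528, 983 and 735 CPM in suffixes 1 to 4, against 94.1 CPM in choroid plexus epithelium and 42.6 CPM in the rest. The efflux pump genes Abcg2 and Abcb1a had 667 and 232 CPM, against 26.1 and 8.19 CPM in the rest. The groups did not overlap for Slc4a10 and Abcg2. Slc23a2, a vitamin C transporter, had 384 CPM, against 30.3 CPM, the monocarboxylate transporter genes Slc16a11 and Slc16a1 323 and 233 CPM, against 6.61 and 13.5 CPM, and the anion exchanger gene Slc26a7 277 CPM, against 2.01 CPM. Slc6a13, a GABA and taurine transporter found in many meningeal fibroblasts, had 18 UMIs in 6 cells (12.6 CPM), and Slc6a12 was at 0.

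Most transcription factor genes of mesenchyme and meninges were higher in the stromal cells. Of 28 measured, 23 were called higher than in the rest and 0 lower (median log2 ratio 2.25, against 0.08 over all genes), and 23 of 27 were higher and 1 lower than in choroid plexus epithelium (median 2.36, against 0.5; 22 and 2 with TMM scaling). Over all genes the shares were 9.36% and 6.5% against the rest and 24.4% and 4.57% against choroid plexus epithelium. Foxc1 and Foxc2, forkhead factors needed for meningeal development, had 124 and 75.5 CPM, against 1.51 and 0.201 CPM, and Foxd1 46.9, 88.8, 128 and 138 CPM in suffixes 1 to 4, against 0.369 CPM in the rest. All suffixes of Foxd1 lay above those of the rest. Foxp1 and Foxp2 had 348 and 192 CPM, against 57.9 and 1.95 CPM, Zic1 and Zic4, zinc finger factors, 227 and 136 CPM, against 16.3 and 6.11 CPM, and Osr1 95.1 CPM, against 0.168 CPM. Msx1 went the other way, with 112 CPM, against 355 CPM in choroid plexus epithelium and 165 CPM in the rest. Meox1, Tcf21, Hand2 and Hoxa5 were at 0.

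**Figure D3:**
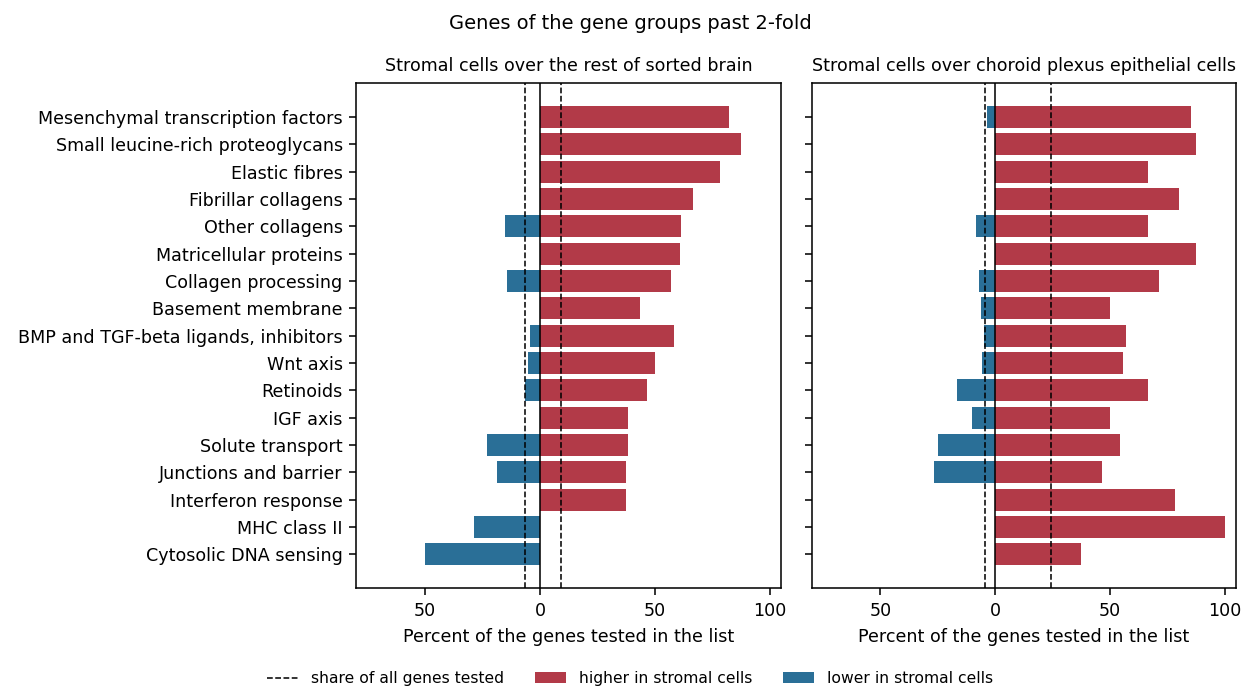
Percent of the measured genes of each group that were called higher (right of 0) or lower (left of 0) in stromal cells, at a ratio of at least 2 with 10 CPM added, over the rest of sorted brain and over choroid plexus epithelial cells. Dashed lines mark the percent of all genes called, 9.36% and 24.4% higher and 6.5% and 4.57% lower, and the transcription factors stand at 23 of 28 and 23 of 27 genes higher.

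The fibroblast marker list summed to 1651 CPM in the stromal cells, against 22.3 CPM in choroid plexus epithelium and 18.7 CPM in the rest. Most of this sum came from genes of the rule, Dcn (571 CPM), Col1a2 (569 CPM) and Lum (42 CPM), so nothing is read from it. Without these genes, 2 of its 3 measured genes were called higher than in the rest, Col1a1 and Col3a1 (103 CPM, against 0.772 CPM), and 0 lower. Of 14 measured genes used as markers of fibroblast progenitors, 6 were called higher than in the rest and 3 lower (9.36% and 6.5% of all genes; 3 and 3 with TMM scaling). Gsn (gelsolin) had 992 CPM, against 91.7 CPM, and Vim (vimentin) 297 CPM, against 117 CPM. Pdgfra and Pdgfrb, the platelet-derived growth factor receptors, had 19.6 and 30.8 CPM, against 5.57 and 2.52 CPM, and Ly6a had 41.4, 0, 102 and 212 CPM in suffixes 1 to 4, with 93.2% of its UMIs in 10 cells. Metallothionein genes Mt1 and Mt2 had 2229 and 557 CPM, against 334 and 37.6 CPM in the rest. Ptgds, prostaglandin D synthase, had 6242 CPM, against 2134 CPM in choroid plexus epithelium and 1242 CPM in the rest, but 53.5% of its UMIs lay in 10 cells. Ptgis and Ptges, which make prostacyclin and prostaglandin E, had 236 and 133 CPM, against 4.5 and 0.906 CPM in the rest.

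Transcripts of MHC class II, which present antigen to T cells, were found in the stromal cells and differed between suffixes. The 7 class II genes summed to 1541, 666, 4942 and 4659.8 CPM in suffixes 1 to 4, against 184, 157, 142 and 369 CPM in choroid plexus epithelium and 4419, 3601, 6763 and 9754 CPM in the rest, which holds the immune cells. Suffixes 3 and 4 of the stromal cells were higher than suffixes 1 and 2, and each suffix lay above choroid plexus epithelium of the same suffix. Cd74, the invariant chain, had 1766 CPM (counting interval 1698 to 1836) in 63.1% of cells, against 92.5 CPM in 13.7% of choroid plexus cells, and with cells thinned to 1000 UMIs the shares were 50.9% and 3.36%. H2-Aa had 504 CPM, against 23.7 CPM, and H2-DMb1 215 CPM, against 21.2 CPM. A class II UMI was present in 80.4% of the stromal cells, and 27.2% of the class II UMIs lay in 10 cells, 5 of suffix 3 and 5 of suffix 4. Markers of other immune cells also differed between suffixes. The B cell list summed to 63.4, 17.8, 235 and 159 CPM in the stromal cells of suffixes 1 to 4, against 73.8, 102, 98.2 and 172 CPM in choroid plexus epithelium and 1419.9, 929, 10559 and 5623 CPM in the rest. The microglia list stood at 3744, 1567, 893 and 1712 CPM in the stromal cells, highest in suffix 1 and lowest in suffix 3. Without the 32 stromal cells that had at least 5 of 10 microglia markers, the class II sum was 3479 CPM (1642, 751, 5039 and 4523 CPM by suffix), against 3322 CPM with them, and the microglia sum 651 CPM, against 1963 CPM. The part of B cell RNA in the suffix difference was not tested.

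Class I genes, which nearly all cells express, were called higher in 1 and lower in 2 of 10 against the rest (0 and 4 with TMM scaling), and higher in 8 of 9 against choroid plexus epithelium (24.4% of all genes). Over all genes, 9.36% were called higher and 6.5% lower than in the rest. B2m, the shared light chain, had 1333 CPM in the stromal cells, against 278 CPM in choroid plexus epithelium and 2617 CPM in the rest. Of 32 chemokine and cytokine genes, 10 were called higher than in the rest and 1 lower (5 and 3 with TMM scaling), among them Cxcl12, a chemoattractant of leukocytes and progenitors, with 225 CPM, against 11.3 CPM. Of 17 complement genes, 2 were called higher and 4 lower (2 and 5 with TMM scaling), and Serping1, the C1 inhibitor, had 288 CPM, against 2.95 CPM.

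Of 24 interferon response genes, 9 were called higher than in the rest and 0 lower (7 and 0 with TMM scaling), and 18 of 23 were higher than in choroid plexus epithelium and 0 lower (16 and 1 with TMM scaling). Over all genes the shares were 9.36% and 6.5% against the rest and 24.4% and 4.57% against choroid plexus epithelium. The sum was 4036, 2819, 3949 and 5689 CPM in suffixes 1 to 4 of the stromal cells, against 1392, 1321, 1397 and 1645 CPM in choroid plexus epithelium and 1560.4, 1229, 1904 and 2422 CPM in the rest. The lowest suffix of the stromal cells lay above all suffixes of the other sets. Ifitm3 and Ifitm2, which block virus entry, had 1216 and 881 CPM, against 289.6 and 171 CPM in the rest. Isg15, a ubiquitin-like modifier, had 187 CPM, against 29.98 CPM, but 59% of its UMIs lay in 10 cells, and Ifi27l2a had 367, 79.9, 207 and 808 CPM in suffixes 1 to 4, with 60.2% in 10 cells. Of 10 measured genes of cytosolic DNA sensing, 0 were called higher and 5 lower than in the rest (9.36% and 6.5% of all genes). Against choroid plexus epithelium, 3 of 8 were called higher, Irf3, Zbp1 and Samhd1, and 0 lower (24.4% and 4.57% of all genes; 0 and 0 with TMM scaling), and the list summed to 184 CPM in the stromal cells, against 70.5 CPM. Irf3, the factor that STING signalling activates, had 72 CPM, against 43.4 CPM in the rest. Tmem173, which encodes STING, had 20 UMIs in 16 stromal cells, or 35.8, 0, 2.37 and 14.3 CPM in suffixes 1 to 4 (14 CPM in all), against 57.3 CPM in the rest. Wild type and STING-KO cells were pooled, so this level does not check the labels. Mb21d1, which encodes the DNA sensor cGAS, had 2 UMIs.

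**Figure D4:**
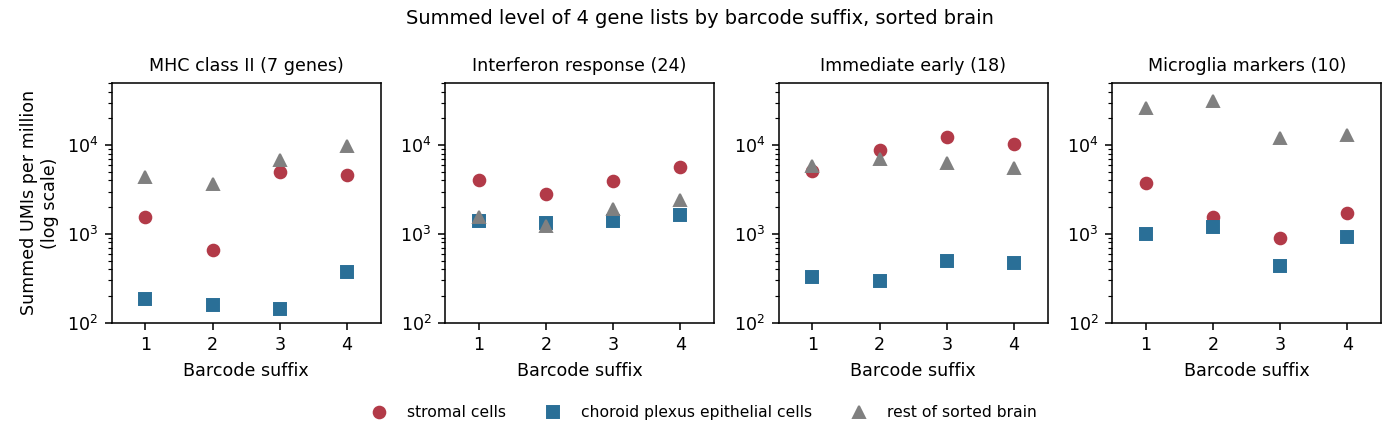
Summed levels of 4 gene groups (vertical axis, UMIs per 1000000 UMIs, log scale) by barcode suffix (horizontal axis) in stromal cells, choroid plexus epithelial cells and the rest of sorted brain. The class II sum of the stromal cells is 1541 and 666 CPM in suffixes 1 and 2 and 4942 and 4659.8 CPM in suffixes 3 and 4, while the microglia sum is highest in suffix 1, at 3744 CPM.

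Immediate early genes, which are induced within minutes by stimuli and also by tissue dissociation, summed to 5155, 8776, 12481 and 10228 CPM in suffixes 1 to 4, against 328, 296, 492 and 471 CPM in choroid plexus epithelium and 5778, 7055, 6289 and 5531 CPM in the rest. The stromal cells overlapped with the rest and lay above choroid plexus epithelium in every suffix. Of 18 genes, 8 were called higher than in the rest and 0 lower (9.36% and 6.5% of all genes; 4 and 1 with TMM scaling), and 17 of 17 measured were higher than in choroid plexus epithelium (24.4% of all genes; 15 with TMM scaling). Fos had 1574, 2743, 3600.1 and 2848 CPM in suffixes 1 to 4, against 70.4 CPM in choroid plexus epithelium and 948 CPM in the rest. The part of dissociation in these values was not tested.

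Clustering of the 393 cells alone (Leiden, resolution 0.5) gave 5 subclusters of 170, 102, 81, 26 and 14 cells, which are described and not tested. The connexin genes were present throughout, with Gja1 at 1238, 1427, 1692, 1558 and 1106 CPM and Gjb6 at 932, 824, 1021, 1064 and 776 CPM in subclusters 1 to 5. Subcluster 1 was marked by immediate early genes, with a sum of 17519 CPM, against 1722, 2171 and 2148 CPM in subclusters 2, 3 and 4 and 14381 CPM in the small subcluster 5. It held 21, 19, 64 and 66 cells of suffixes 1 to 4, and subcluster 2 held 33, 14, 22 and 33. Subcluster 2 had Apod, a lipid-binding apolipoprotein, at 2939 CPM and Dcn at 1096 CPM, and Dcn was at 929 CPM in subcluster 3 and 194 CPM in subcluster 1. Of the Apod UMIs of all stromal cells, 71.5% lay in 10 cells. Subcluster 3 had the most Prg4 (773 CPM, in 65.4% of its cells), Rbp4 (641 CPM) and Ly6a (248 CPM) and also the highest Mgp level, 20382 CPM. The class II sum was 4390 and 4646 CPM in subclusters 1 and 3, and 1196, 684 and 1569 CPM in subclusters 2, 4 and 5. Subcluster 4 had Ptgds at 34433 CPM, and 11.5% of its 26 cells were called doublets. Subcluster 5 had microglial markers at a sum of 29059 CPM, with C1qa at 6885 CPM, and Mgp at 5663 CPM, and 14.3% of its 14 cells were called doublets. Haemoglobin transcripts rested on 1 cell. It lay in subcluster 2 and suffix 3, was not called a doublet and had 4376 haemoglobin UMIs among 7534, and without it the erythroid sum of the stromal cells was 583 CPM, against 3641 CPM with it.

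**Figure D5:**
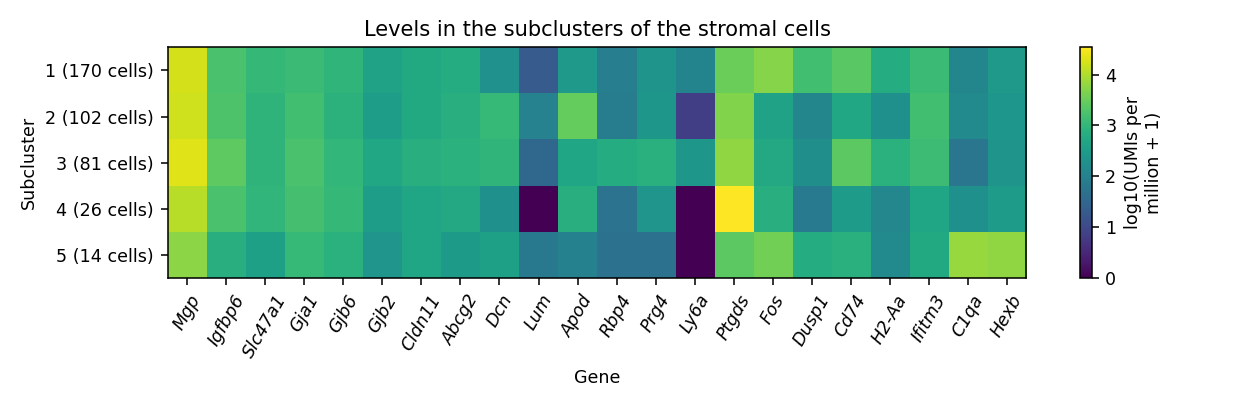
Levels of 22 genes (columns) in the 5 subclusters of the stromal cells (rows, with the number of cells), coloured by log10 of UMIs per 1000000 UMIs plus 1. Gja1 and Gjb6 are similar in all rows, Fos is at 5221 CPM in subcluster 1, Ptgds at 34433 CPM in subcluster 4 and C1qa at 6885 CPM in subcluster 5.

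The same rule found 86 cells among 9367 kept cells of total brain (0.918%, 0.735 to 1.13), with 9, 17, 41 and 19 cells in its suffixes and 1134096 UMIs. Levels of the rule genes in these cells are given as a description. Mgp stood at 17059 CPM in the sorted stromal cells, against 4168 CPM in the total brain cells, Igfbp6 at 1883 CPM, against 344 CPM, Slc47a1 at 941 CPM, against 223 CPM, and Dcn at 571 CPM, against 1050.2 CPM. The endothelial list summed to 1044 CPM, against 8458 CPM, the mural list to 145 CPM, against 4589.6 CPM, the neuron list to 6.99 CPM, against 1849.9 CPM, and the erythroid list to 3641 CPM, against 33988 CPM. The vascular genes Rgs5, Flt1, Cldn5, Ly6c1 and Slc2a1 were among the leading genes lower in the sorted cells, at 2.8, 0.699, 12.6, 6.99 and 6.29 CPM, against 2190.3, 1607, 1842, 1391 and 1438 CPM, with Meg3, a neuronal noncoding RNA, at 4.2 CPM, against 1364 CPM. Most UMIs of the first 4 of these genes in sorted cells lay in suffix 1. Without it Rgs5, Flt1, Cldn5 and Ly6c1 were at 0.937, 0, 2.81 and 0.937 CPM, and 15 of the 18 Cldn5 UMIs lay in 1 cell. Ptprb had 0 UMIs, against 958 CPM, and Xist, the RNA of the inactive X chromosome, 0 UMIs, against 785 CPM, where the sorted sample was male and the total sample pooled both sexes. Of 12203 genes, 993 were called higher (8.14%) and 3357 lower (27.5%) in the sorted cells, so that 22.8% of the calls were higher, and 47.3% with TMM scaling, which moved the median of all genes by 0.3. Sort, ages, sexes and software version differed together between the samples and cannot be told apart.

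Requiring at least 7 of the 10 stromal genes in both samples left 290 sorted and 22 total brain cells. This minimum selects on the rule genes themselves, so their levels are a description and nothing is read from them. Mgp was then at 17429 CPM in sorted cells and 16091 CPM in total brain cells, Igfbp6 at 1942 and 1368 CPM, and Slc47a1 at 998 and 815 CPM. This stricter choice was made after its values were seen. Gja1 was at 1434 CPM in sorted cells, against 949 CPM in total brain cells, where the ratio under the first rule was 4.72, and Gjb6 was at 916 CPM, against 377 CPM. Sfrp4, which led the genes higher in sorted cells under the first rule (482 CPM, against 19.4 CPM, 24.8-fold, 16.3 to 39.9), was at 492 CPM, against 76.2 CPM, Crabp2 at 476 CPM, against 183 CPM, S100b at 678 CPM, against 225 CPM, and Cd74 at 1868 CPM, against 564 CPM. Igfbp5 was at 1716 CPM, against 2583 CPM, and Foxd1 at 110 CPM, against 480 CPM. The endothelial sum was still 1060.2 CPM in sorted cells, against 2959.9 CPM in total brain cells, and the mural sum 75.5 CPM, against 2598 CPM.

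Under the first rule, other genes higher in the sorted cells included Ttr (5044 CPM, against 406 CPM), Gstp1, a glutathione transferase (325 CPM, against 34.4 CPM), Mia (171 CPM, against 14.1 CPM) and Wfdc2 (171 CPM, against 13.2 CPM), and 6 of 6 measured class II genes (8.14% of all genes), with H2-Ab1 at 413 CPM, against 46.7 CPM, and H2-DMb1 at 215 CPM, against 18.5 CPM. The class II sum overlapped between suffixes, at 666 to 4942 CPM in the sorted cells and 138 to 1103 CPM in the total brain cells. By suffix H2-Ab1 had 174, 57.7, 622 and 601 CPM, against 0, 184, 30.1 and 11.8 CPM. Ttr was higher still, at 8219 CPM, in the sorted cells with microglia markers described above. Choroid plexus epithelial cells made up 14.8% of kept cells in sorted brain and 2.84% in total brain. All 17 measured basement membrane genes were called lower in the sorted cells (27.5% of all genes; 14 with TMM scaling), such as Col4a1 at 33.6 CPM, against 359 CPM, and Nid1 at 76.2 CPM, against 191 CPM, in cells whose endothelial and mural sums were lower too. Transcription factors were split, with 7 of 28 called higher and 6 lower (9 and 4 with TMM scaling). Over all genes these shares were 8.14% and 27.5%. Foxd1 had 104 CPM, against 198 CPM. Of 6 fibrillar collagen genes, 0 were called higher and 2 lower (0 and 1 with TMM scaling), with Col3a1 at 103 CPM, against 269.8 CPM. With so few genes these counts do not stand apart from the shares over all genes. The part of vascular, neuronal and choroid plexus RNA in these differences was not tested.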

How the data were processed

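The counts used are UMI counts per gene and cell as deposited by the authors, 1 matrix per pooled sample, with 31053 genes. Per the file headers they came from Cell Ranger 3.0.2 for sorted brain and 3.1.0 for total brain, and per the submitters' processing notes from Cell Ranger 3.0.2 with the mm10 genome, with no annotation release named. The members and gene lists were chosen with earlier results of these data known.

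UMIs were summed over the cells of each set and scaled to 1000000 UMIs per set (CPM), with exact Poisson intervals for levels, conditional binomial intervals for ratios and Clopper-Pearson intervals for shares, all at 95%. Such levels are per 3′ tag and do not rank genes against each other. Genes needed 10 UMIs over both sets, and a call a ratio of 2 with 10 CPM added. Genes were named by rule, leaving out the 16 genes of the cell rule and predicted, mitochondrial and ribosomal protein genes: at least 50 CPM in 1 or both sets, a call, and no overlap between the ranges of suffixes that hold 20 cells or more, ranked by log2 ratio, the top 20 higher and 8 lower against the rest and 10 and 8 elsewhere. In total brain only suffix 3, with 41 cells, held 20 cells or more. The total brain range was thus 1 value, and this criterion covered no spread between its suffixes. Members of the gene lists were named at 20 CPM or more, or at 0; Gfap, Mog, Dpp4, Aldh1a2, Slc6a13, Pdgfra, Tmem173, Mb21d1 and Zbp1 fall outside this and were named after their values were seen. A few genes that these rules reach are not reported here. On simulated data, 91% (rest), 96% (choroid plexus) and 94% (total brain) of 200 changed genes were recovered. The changed genes had at least 50 CPM and were raised by factors of more than 2. The simulated counts had counting error only, without spread between cells or suffixes, so they do not cover genes held by few cells. Scrublet called 0.117% of the kept total brain cells doublets, which is too few to be relied on. Alternatives were other cell filters, rule minimums, doublet removal, each suffix left out, pseudocount, UMI minimums, scaling and Leiden resolution. Software was Python 3.11.15, numpy 2.4.6, scipy 1.17.1, scanpy 1.11.5, leidenalg 0.10.2, R 4.3.3 and edgeR 4.0.16 (TMM only).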

Additional observations from a re-analysis of the deposited data

How the results depend on the processing

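The number of stromal cells was 393, and 190 under a stricter filter of 1000 genes and 5% mitochondrial UMIs; leaving out a suffix gave 246 (without suffix 4) to 347. Leaving out each suffix in turn gave 1463 to 1523 genes higher and 1007 to 1041 lower than in the rest, 3073 to 3130 and 582 to 600 against choroid plexus epithelium, and 977 to 1150 and 3206 to 3396 against the total brain cells. With 1 CPM added in place of 10 CPM the counts were 3019 higher and 2813 lower against the rest, 5981 and 1439 against choroid plexus epithelium, and 1633 higher against total brain, where more genes near 0 pass. TMM scaling gave 1115 higher and 1417 lower against choroid plexus epithelium and 2017 higher against total brain. Against total brain, the count of higher genes was 458 with a looser filter (200 genes, 20% mitochondrial UMIs) and 1684 with the stricter one, the count of lower genes 2152 with a minimum of 50 UMIs, and with at least 7 of the 10 stromal genes, a choice added after seeing the data, the counts were 661 and 1677; the cause was not tested. Leiden resolutions of 0.25 and 1 gave 3 and 10 subclusters in place of 5.

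Of the levels of 61 named genes in the stromal cells, 60 stayed within the 95% counting interval of the value reported under the looser filter, 35 under the stricter one, 55 without called doublets and 56 without cells rich in microglial markers, and 43 to 55 when 1 suffix was left out. No paired analysis was possible because each group has 1 pooled sample. At a depth of 1429724 UMIs, the exact Poisson upper bound of a level of 0 in the stromal cells is 2.58 CPM.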
